A study of Homo sapiens with 6 samples.

Results

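The genes described here are the monocarboxylate carriers SLC16A1, SLC16A3, SLC16A4, SLC16A5, SLC16A6 and SLC16A7, the carrier chaperone BSG and the lactate dehydrogenase genes LDHA and LDHB, 9 genes in all. The data are from MDA-MB-231, an established human breast cancer line, on 3 arrays from cells given an siRNA against ING2 and 3 arrays from cells given a non-targeting siRNA. Both groups were the unmodified line, and the labels name 1 ING2 siRNA, so an effect of that siRNA on other transcripts and an effect of ING2 loss cannot be told apart. The treatment notes of the labels put RNA collection 4 days after transfection, and the extraction notes put it at 3 days. ING2 encodes a reader of methylated histone H3 within a SIN3 histone deacetylase complex. The annotation used here named a probe set, the array's unit of measurement, for 6 of the 9 genes, with 13 probe sets in all, out of 19777 genes measured. SLC16A1, SLC16A3 and SLC16A6 were not analysed here. The family was chosen on values of the same ING2 siRNA against control siRNA contrast, in which SLC16A4 was already known to be among the lowest genes. The differences below are therefore a description of these 6 arrays, and no p-value is given for any of the 9 genes.

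Cells that break down glucose quickly reduce pyruvate to lactate and must export it together with a proton. Lactate dehydrogenase is a tetramer of A and B subunits, of which LDHA favours the making of lactate and LDHB its oxidation. The carriers MCT1, MCT2 and MCT4, encoded by SLC16A1, SLC16A7 and SLC16A3, move lactate and pyruvate across the plasma membrane. They reach the membrane with a single-span glycoprotein, basigin (BSG) for MCT1 and MCT4 and embigin (EMB) for MCT2. SLC16A4, SLC16A5 and SLC16A6 encode relatives that are better known for other substrates or have no well-established one. MDA-MB-231 is known as a strongly glycolytic line.

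The sequences before the annotated starts are shown for the carrier gene that fell and for the chaperone and dehydrogenase genes that did not pass the threshold, since they differ in base composition. Each is the 250 bases upstream of a RefSeq start (GRCh38.p14), 5′ to 3′. Capitals mark matches on either strand to ACGTG, a form of the hypoxia-response core, the E-box CACGTG and the GC box GGGCGG. Other forms of the core were not searched for.
SLC16A4 chr1:110391027-110391276 (- strand): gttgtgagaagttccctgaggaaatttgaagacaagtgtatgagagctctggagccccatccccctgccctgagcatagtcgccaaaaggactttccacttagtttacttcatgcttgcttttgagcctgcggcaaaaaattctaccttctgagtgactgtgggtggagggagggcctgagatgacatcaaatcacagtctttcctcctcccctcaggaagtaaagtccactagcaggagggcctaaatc
BSG chr19:572346-572595 (+ strand): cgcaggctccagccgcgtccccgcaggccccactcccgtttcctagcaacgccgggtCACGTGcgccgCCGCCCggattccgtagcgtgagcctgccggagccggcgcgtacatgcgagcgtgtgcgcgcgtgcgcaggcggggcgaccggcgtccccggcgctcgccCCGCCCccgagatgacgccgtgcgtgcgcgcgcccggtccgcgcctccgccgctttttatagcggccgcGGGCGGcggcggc
LDHA chr11:18394313-18394562 (+ strand): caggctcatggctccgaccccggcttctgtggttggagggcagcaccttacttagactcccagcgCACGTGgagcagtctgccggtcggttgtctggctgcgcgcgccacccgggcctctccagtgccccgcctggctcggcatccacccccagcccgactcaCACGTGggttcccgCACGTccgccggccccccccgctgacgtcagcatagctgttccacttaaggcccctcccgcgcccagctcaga
LDHA chr11:18396101-18396350 (+ strand): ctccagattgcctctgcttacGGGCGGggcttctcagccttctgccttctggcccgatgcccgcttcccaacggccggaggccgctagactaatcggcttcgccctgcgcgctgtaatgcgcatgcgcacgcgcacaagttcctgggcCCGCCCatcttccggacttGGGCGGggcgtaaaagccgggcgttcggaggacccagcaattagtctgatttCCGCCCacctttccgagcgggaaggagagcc
LDHB chr12:21657843-21658092 (- strand): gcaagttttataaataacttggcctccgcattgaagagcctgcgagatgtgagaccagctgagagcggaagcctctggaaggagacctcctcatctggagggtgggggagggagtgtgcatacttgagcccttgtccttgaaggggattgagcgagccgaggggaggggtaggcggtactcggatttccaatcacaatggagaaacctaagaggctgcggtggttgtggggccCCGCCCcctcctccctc
The SLC16A4 window held 2 CpG dinucleotides and no match to any of the 3 motifs, which says only that these letters are not in this window. The BSG window shown held 50 CpG dinucleotides, and the LDHA windows held 22 and 25. The LDHB window held 9 CpG dinucleotides and a GC box. A further BSG window (chr19:571033-571282), not printed, held 13 CpG dinucleotides, and the SLC16A7 windows, also not printed, held 15 and 1. None of these 3 windows matched any of the motifs, so a window with few CpG dinucleotides or no match was not particular to SLC16A4. An E-box contains ACGTG on both strands, so each E-box also counts as a pair of ACGTG matches. The first LDHA window held 2 E-boxes and 5 matches to ACGTG, while the second held 4 GC boxes and no ACGTG. Over all 35116 windows of this length in the RefSeq table, 18.5% held ACGTG, 6.34% held CACGTG and 42.6% held GGGCGG, and the median was 11 CpG dinucleotides. In all, 5 of the 6 measured genes matched the table, with 8 windows.

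The targeted gene was lower on every ING2 siRNA array. The brighter ING2 probe set, 205981_s_at, read 163, 188 and 161 intensity units with ING2 siRNA, against 1400, 1349 and 1324 units with control siRNA. Over all probe sets the arrays had medians of 75.7 to 81.5 units. Precision is set here by the 3 arrays per group, and no label states that replicates were grown as separate cultures, so p-values and errors reflect only the spread between these samples, possibly technical. Of the markers of this line, VIM, CD44, CAV1 and AXL lay at intensity percentiles 96.2 to 99.6 of all genes, and ESR1, PGR and CDH1 at percentiles 5.50 to 40.9. The blood cell markers PTPRC and CD3E lay at percentiles 8.53 and 45.0, and the table holds no detection calls. Dim genes were shifted upwards and bright genes downwards between the groups, with a median log2 difference of 0.15 in bins 2 to 4 of 10 intensity bins and -0.09 in the brightest. For GAPDH, whose control probe sets track RNA quality, the excess of 3′ over 5′ signal was 0.27 to 0.35 log2 units on ING2 siRNA arrays, against 0.19 to 0.22 on control siRNA arrays. For ACTB the same measure overlapped between the groups, with 0.49, 0.65 and 0.48 on ING2 siRNA arrays, against 0.37, 0.53 and 0.58 on control siRNA arrays. The part of the GAPDH gap in the differences below was not tested.

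Of the carriers, SLC16A4 was lower with ING2 siRNA, and SLC16A5 was nearly level by its brightest probe set. The 5 probe sets of SLC16A7 did not move together. The chaperone gene BSG was somewhat higher, and both dehydrogenase genes were within a few percent of their control level. A gene or probe set was called at a limma p under 0.05 after Benjamini-Hochberg adjustment across the whole table. Of the 6 genes, 1 was called lower, where 4.67% of all genes were, and 0 were called higher, where 3.62% of all genes were. At an unadjusted p under 0.05 in limma, 1 was lower and 1 higher, where 2685 and 3830 of all 19777 genes were. Groups did not overlap in 3 of the 6, against 36.5% of all genes. The median log2 difference of the 6 genes was -0.08, beside 0.06 over all genes. Of the 6, 5 lay below 0, where 7583 of all 19777 genes did. Since the family was chosen from this contrast, nothing is read from these counts.

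**Figure D1:**
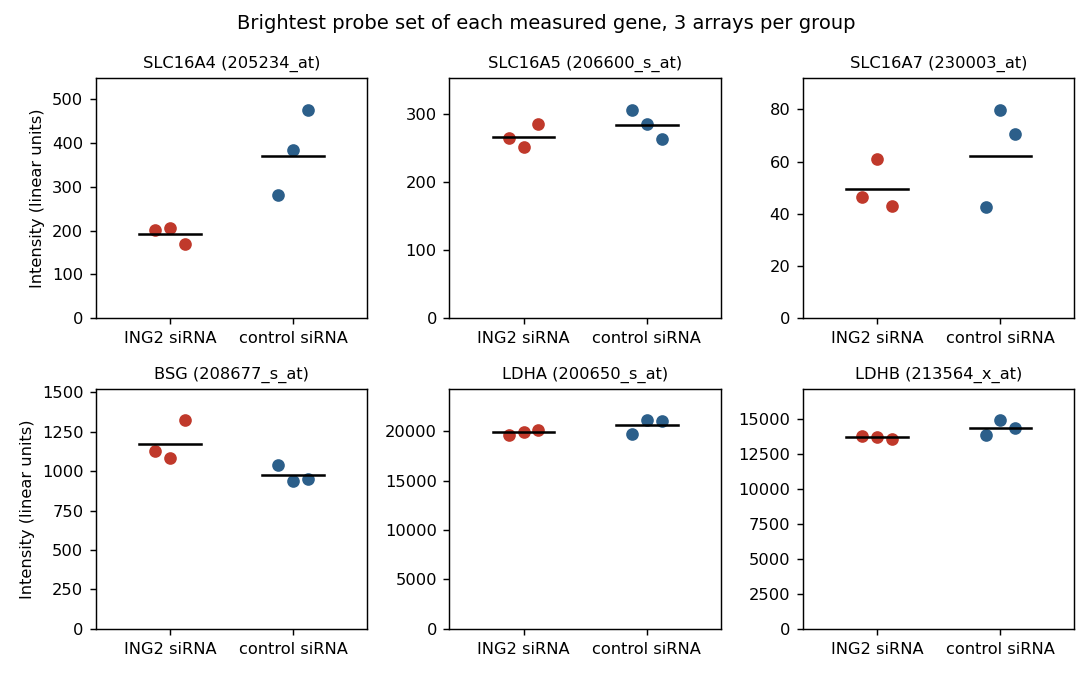
Intensity in linear units (vertical axis, from 0) of the brightest probe set of each of the 6 measured genes, with the 3 ING2 siRNA arrays in red and the 3 control siRNA arrays in blue. Points are arrays and lines are geometric means. All SLC16A4 points with ING2 siRNA lie at 206 units or less, below the lowest control siRNA point of 280, while the LDHA points overlap.

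SLC16A4 encodes MCT5, a member of the family that is less studied than the lactate carriers. Its single probe set, 205234_at, read 201, 206 and 170 units with ING2 siRNA, against 280, 383 and 476 units with control siRNA. All 3 ING2 siRNA arrays lay below all 3 control siRNA arrays, and the control arrays differed from each other by up to 1.70-fold, against 1.21-fold among the ING2 siRNA arrays. On the log2 scale it averaged 7.58 ± 0.15 with ING2 siRNA and 8.53 ± 0.38 with control siRNA (SD, n = 3 each). The log2 difference was -0.95 (SE 0.17), which is 51.7% of the control level. It was the sixth lowest difference among 19777 genes, the lowest being that of ING2, and lay 1.00 log2 units away from the median of genes as bright as itself (0.05). The residual spread of SLC16A4 within groups was at percentile 98.5 of all genes. The call did not hold when any of 4 arrays was left out, fits in which only 2 or 3 of all 19777 genes were called. The difference was -0.99 without ING2 siRNA replicate 1, -0.87 without ING2 siRNA replicate 3, -0.93 without control siRNA replicate 2 and -0.77 without control siRNA replicate 3. In these bulk samples, less RNA per cell and fewer cells that express the gene cannot be told apart.

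The 3 genes whose arrays followed those of SLC16A4 most closely were PATJ, YEATS4 and FRMD4B, out of 19771 other genes. Likeness was measured as the root mean square distance of log2 values centred on each gene's control mean, over the 6 arrays, and was 0.10, 0.10 and 0.12 log2 units. PATJ, a scaffold of cell polarity and tight junctions, read 114, 135 and 111 units with ING2 siRNA, against 160, 228 and 274 units with control siRNA. In it too, control siRNA replicate 1 was the lowest control array and replicate 3 the highest. YEATS4, a subunit of chromatin complexes that reads acylated histones, read 145, 179 and 131 units with ING2 siRNA, against 216, 272 and 359 units with control siRNA. FRMD4B, a FERM domain protein, read 81.1, 87.7 and 72.7 units with ING2 siRNA, against 97.5, 156 and 189 units with control siRNA. The same order of control arrays was present in all 4 genes, as the measure of likeness favours. With the mean of all its probe sets in place of the brightest, PATJ had a log2 difference of -0.07 and FRMD4B one of -0.17, neither of them called.

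SLC16A7 encodes MCT2, a carrier with a high affinity for lactate and pyruvate. Its 5 probe sets were dim, at percentiles 12.4 to 35.1 of probe sets by intensity, and gave different pictures. The brightest, 230003_at, read 46.5, 60.9 and 42.8 units with ING2 siRNA, against 42.7, 79.9 and 70.4 units with control siRNA. Control siRNA replicate 1 lay just below the lowest ING2 siRNA array, while the other control arrays lay above all ING2 siRNA arrays, so the groups overlapped. In this probe set the residual spread was at percentile 99.8 of all genes. The log2 difference was -0.33 (SE 0.21). It lay between -0.60 and -0.15 when each array was left out in turn. It was called lower in 1 of these 6 fits, without control siRNA replicate 1 (-0.60), and was not called without control siRNA replicate 2 (-0.15).

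Another SLC16A7 probe set, 241925_x_at, read 32.5, 34.6 and 32.3 units with ING2 siRNA, against 44.1, 52.9 and 48.5 units with control siRNA. Its groups did not overlap. It had a log2 difference of -0.55 (SE 0.09), 68.5% of the control level, and was called lower in the fit over probe sets, but not without ING2 siRNA replicate 1 (-0.53) or 3 (-0.53), or control siRNA replicate 2 (-0.48) or 3 (-0.54). The suffix of this probe set marks probes that may also bind other transcripts. The other SLC16A7 probe sets had log2 differences of 0.08 (SE 0.14, 210807_s_at), 0.07 (SE 0.14, 241866_at) and -0.05 (SE 0.12, 207057_at), with overlapping groups. The dimmest, 241866_at, read 14.2, 18.4 and 19.8 units with ING2 siRNA, against 14.3, 17.7 and 17.9 units with control siRNA. The signs of 210807_s_at (-0.0019) and 241866_at (-0.04) were turned after quantile normalization. No direction for SLC16A7 as a gene was common to its probe sets.

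SLC16A5 encodes MCT6, which has been studied as a carrier of drugs such as bumetanide. Its brightest probe set, 206600_s_at, read 264, 252 and 285 units with ING2 siRNA, against 307, 285 and 264 units with control siRNA. The groups overlapped, and the log2 difference was -0.09 (SE 0.09). The probe set 213590_at read 187, 179 and 185 units with ING2 siRNA, against 168, 163 and 151 units with control siRNA. Here every ING2 siRNA array was above every control siRNA array, with a log2 difference of 0.20 (SE 0.08) that was not called. The remaining probe set, 206599_at, had a log2 difference of -0.03 (SE 0.08) and overlapping groups. The mean of the SLC16A5 probe sets gave a log2 difference of 0.02, so the sign of the gene depended on the probe set used.

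**Figure D2:**
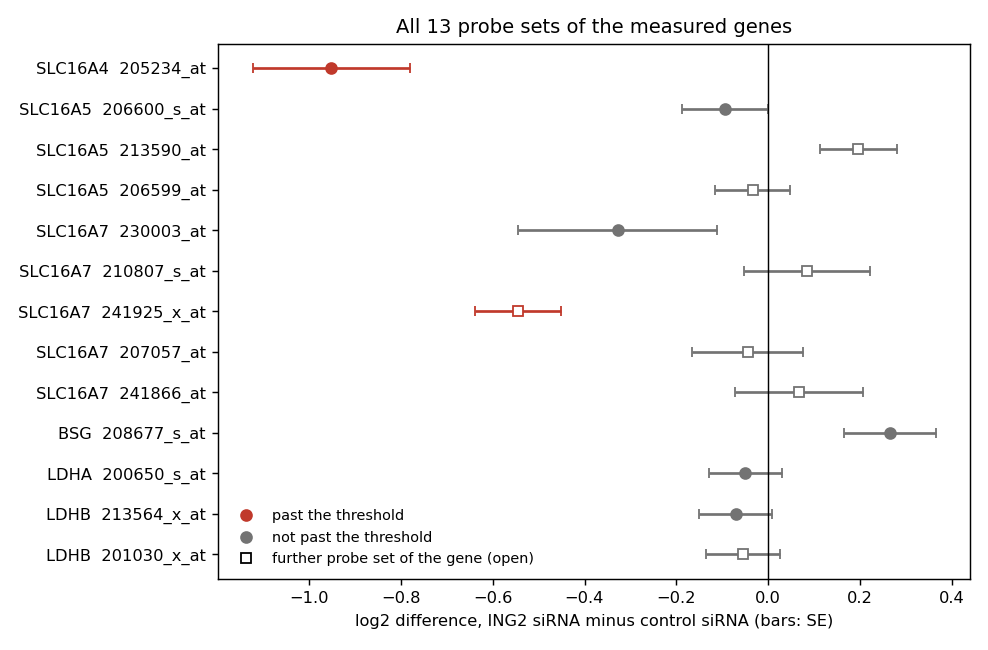
Log2 difference, ING2 siRNA minus control siRNA (horizontal axis), of all 13 probe sets of the 6 measured genes, with bars of 1 SE from the fit over 41091 probe sets. Filled circles are the brightest probe set of a gene, open squares its further probe sets, and red marks those called. The only red points are the SLC16A4 probe set at -0.95 and the SLC16A7 probe set 241925_x_at at -0.55.

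Over probe sets, 2 of the 13 were called lower, where 5.12% of all probe sets were, and 0 were called higher, where 2.18% of all probe sets were. At an unadjusted p under 0.05 in limma, 2 were lower and 2 higher, where 5671 and 6619 of all 41091 probe sets were. Groups did not overlap in 5 of the 13, against 34.4% of all 41091 probe sets. Probe sets of 1 gene share its transcripts and are not replicates of a condition.

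BSG encodes basigin, the membrane glycoprotein that carries MCT1 and MCT4 to the cell surface. Its single probe set, 208677_s_at, read 1126, 1081 and 1323 units with ING2 siRNA, against 1042, 939 and 948 units with control siRNA. All ING2 siRNA arrays were above all control siRNA arrays, although ING2 siRNA replicate 2 exceeded control siRNA replicate 1 only slightly. On the log2 scale BSG averaged 10.19 ± 0.15 with ING2 siRNA and 9.93 ± 0.08 with control siRNA (SD, n = 3 each). The log2 difference was 0.27 (SE 0.10), which is 120.2% of the control level, and was not called. Genes of the same brightness had a median log2 difference of -0.09, so BSG lay 0.35 above them. With each of the 6 arrays left out in turn, the BSG difference lay between 0.18 and 0.32 and was called in 0 of them.

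LDHA, the subunit that favours the reduction of pyruvate, was among the brightest genes on the arrays, at percentile 99.8. Its single probe set, 200650_s_at, read 19634, 19892 and 20138 units with ING2 siRNA, against 19719, 21074 and 20984 units with control siRNA. Control siRNA replicate 1 lay between the ING2 siRNA arrays, so the groups overlapped. The log2 difference was -0.05 (SE 0.08), or 96.6% of the control level, and was not called. Within groups LDHA varied less than nearly all genes, at percentile 3.49 of the residual spread.

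LDHB, the subunit that favours the oxidation of lactate, was at intensity percentile 99.6 and had a pair of probe sets. The brighter, 213564_x_at, read 13739, 13690 and 13560 units with ING2 siRNA, against 13831, 14866 and 14359 units with control siRNA. Its groups did not overlap, but the highest ING2 siRNA array and the lowest control siRNA array were nearly equal, and the log2 difference of -0.07 (SE 0.08) was not called. The dimmer, 201030_x_at, read 13252, 13499 and 13002 units with ING2 siRNA, against 13199, 14300 and 13829 units with control siRNA. Here the groups overlapped and the log2 difference was -0.06 (SE 0.08). Both dehydrogenase genes lay close to the median of the brightest bin (-0.09). After cyclic loess their differences had the other sign, 0.07 for LDHA and 0.05 for LDHB, so no direction is given for either. The LDHB suffix marks probes that may bind more than 1 transcript, and processed pseudogenes of both genes are known, so their values may include close copies.

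The balance of the dehydrogenase subunits was set out within each array, as the log2 value of LDHA minus that of LDHB. A probe's own brightness enters this difference, so it is no ratio of the subunits and only its change between arrays can be read. It was 0.52, 0.54 and 0.57 with ING2 siRNA, against 0.51, 0.50 and 0.55 with control siRNA. The groups overlapped, with means of 0.54 ± 0.03 and 0.52 ± 0.02 (SD, n = 3 each) for ING2 siRNA and control siRNA. The difference between the means, 0.02, was smaller than the spread within either group.

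**Figure D3:**
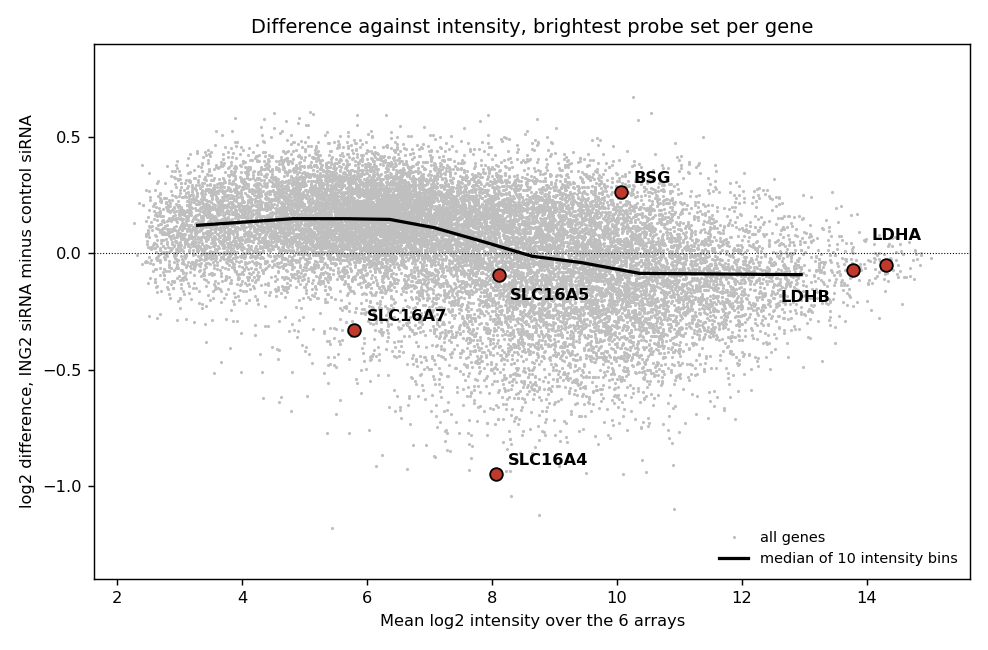
Log2 difference, ING2 siRNA minus control siRNA (vertical axis, whose range leaves out ING2), against mean log2 intensity over the 6 arrays (horizontal axis) for the brightest probe set of each gene. Grey points are all genes, the black line joins the medians of 10 intensity bins, and red points are the 6 measured genes. LDHA and LDHB lie beside the line at the bright end, BSG lies 0.35 above it and SLC16A4 lies 1.00 below it.

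Among the genes around these carriers and enzymes, 3 of the 5 for pyruvate dehydrogenase subunits were called lower by their brightest probe set. By that probe set the other 2 did not pass. The list was fixed with earlier results of these arrays known and held 32 genes, of which 26 were measured. Of the 26, 4 fell and 0 rose, where 4.67% and 3.62% of all genes did, and 22 did not pass the threshold in limma. At an unadjusted p under 0.05 in limma, 6 were lower and 4 higher, where 2685 and 3830 of all 19777 genes were. The list's median log2 difference was 0.02, beside 0.06 over all genes. The 4 that fell were DLD, DLAT, PDHX and EMB.

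Pyruvate dehydrogenase is the mitochondrial complex that turns pyruvate into acetyl-CoA and so competes with lactate dehydrogenase for it. DLD, the dihydrolipoamide dehydrogenase that this complex shares with other keto acid dehydrogenases, read 1682, 1712 and 1540 units with ING2 siRNA, against 2122, 2503 and 2534 units with control siRNA. In log2 units DLD fell by 0.53 (SE 0.10, limma Benjamini-Hochberg adjusted p = 0.0226). DLAT, the acetyltransferase core of the complex, read 842, 1054 and 1017 units with ING2 siRNA, against 1313, 1376 and 1470 units with control siRNA. DLAT fell by 0.52 (SE 0.10, limma adjusted p = 0.0264), and all 3 of its probe sets were called lower in the fit over probe sets. PDHX, which anchors DLD to the core, read 881, 1055 and 935 units with ING2 siRNA, against 1113, 1434 and 1316 units with control siRNA. It fell by 0.42 (SE 0.11, limma adjusted p = 0.0461), with limma adjusted p = 0.0705 after cyclic loess and 0.0727 after quantile normalization, and 0.0540 in the fit over probe sets. In each of these genes all ING2 siRNA arrays lay below all control siRNA arrays. The catalytic subunit genes PDHA1 (0.03, SE 0.08) and PDHB (-0.13, SE 0.08) did not pass by their brightest probe sets. A dimmer PDHB probe set, 208911_s_at, was called lower in the fit over probe sets, with a log2 difference of -0.55 (SE 0.10).

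EMB, the embigin gene whose product accompanies MCT2, read 201, 242 and 196 units with ING2 siRNA, against 262, 298 and 290 units with control siRNA. The groups did not overlap, and in log2 units EMB fell by 0.41 (SE 0.10, limma adjusted p = 0.0396). A very dim EMB probe set, 239072_at, had a log2 difference of 0.15 (SE 0.11) and overlapping groups, and the second DLD probe set, 230426_at, one of -0.04 (SE 0.11). With the mean of all probe sets, EMB had a log2 difference of -0.13 and did not pass (limma adjusted p = 0.186). The 4 calls depended on single arrays, as calls did over the whole table. Without ING2 siRNA replicate 1 or 3, or control siRNA replicate 2 or 3, 0 genes of the list were called lower. Each of these fits called only 2 or 3 of all 19777 genes. Without control siRNA replicate 1, 6 genes of the list were called lower, where 1631 of all genes were. Without ING2 siRNA replicate 2, 5 were, where 1350 of all genes were. Over these 6 fits DLD lay between -0.62 and -0.49, DLAT between -0.58 and -0.42, PDHX between -0.53 and -0.34 and EMB between -0.51 and -0.36.

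None of the other carriers, 6 of 10 measured, passed the threshold in limma. At an unadjusted p under 0.05 in limma, 2 of them were higher and 0 lower, where 3830 and 2685 of all 19777 genes were. SLC16A8, known from the retinal pigment epithelium, had a log2 difference of 0.32 (SE 0.10) from 65.0, 53.2 and 63.8 units with ING2 siRNA, against 47.3, 50.6 and 47.7 units with control siRNA. The aromatic amino acid carrier SLC16A10 had one of 0.27 (SE 0.10). Both were dim genes, of a brightness at which the median log2 difference was 0.15. The other lactate dehydrogenase genes, 4 of 4 measured and known mainly from testis or, for LDHD, as a D-lactate enzyme, lay between -0.01 and 0.19 and none passed (0 in either direction also at an unadjusted p under 0.05 in limma). The mitochondrial pyruvate carrier genes MPC1 (-0.16, SE 0.08) and MPC2 (-0.17, SE 0.10) did not pass, although a dimmer MPC2 probe set, 227669_at (-0.47), was called lower. None of the 4 pyruvate dehydrogenase kinase genes passed, and they lay between -0.36 for PDK1 and 0.22 for PDK2. At an unadjusted p under 0.05 in limma, 1 of these kinase genes was higher and 1 lower, where 3830 and 2685 of all 19777 genes were. By their brightest probe sets, none of the MPC genes passed.

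**Figure D4:**
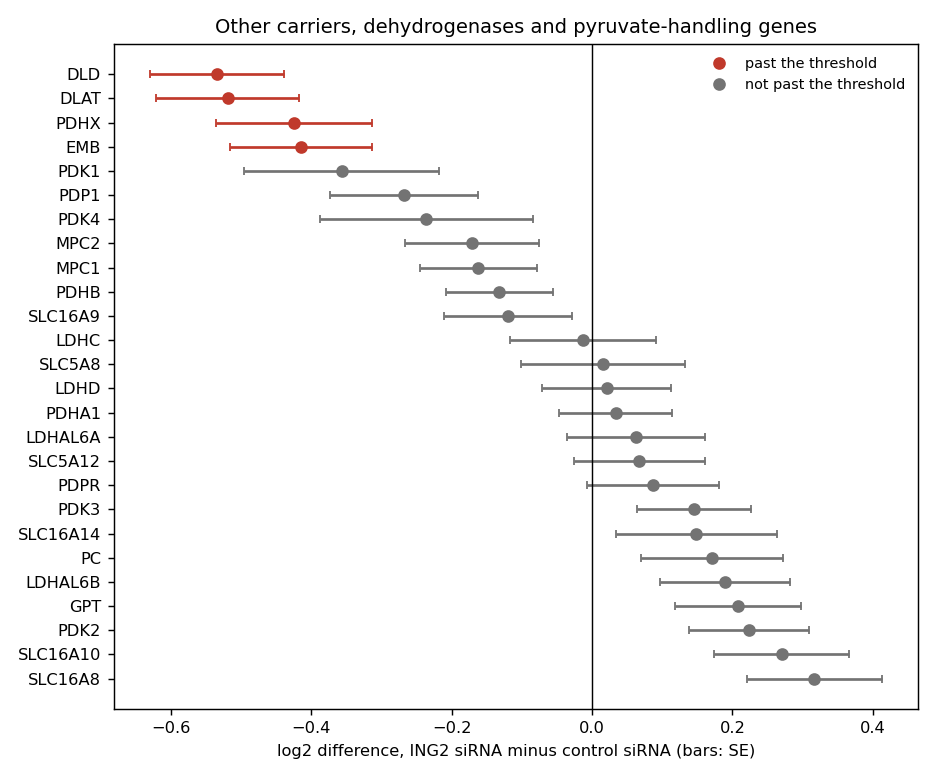
Log2 difference, ING2 siRNA minus control siRNA (horizontal axis), of the brightest probe set of the 26 measured genes of the list, ordered from lowest to highest, with bars of 1 SE from the fit over 19777 genes. Red marks the 4 genes past the threshold, DLD, DLAT, PDHX and EMB, between -0.53 and -0.41, and the highest value is that of SLC16A8 at 0.32.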

How the data were processed

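Total RNA was amplified to biotin-labelled cRNA and measured on 6 one-colour arrays, per the labels' protocols. The authors deposited 1 intensity value per probe set and array on a linear scale. The submitters' processing notes list RMA and R 2.12. How linear values were obtained after RMA, which ends on a log2 scale, is not stated in them. Of 54675 probe sets, 62 were control probe sets, and 41091 named 1 gene in the platform annotation and were used, covering 19777 genes. Of these, 19735 matched RefSeq's gene table (GRCh38.p14), which gave current symbols.

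The log2 of each intensity was taken with no pseudocount and no filter. Each gene was represented by its brightest probe set (highest log2 mean, 6 arrays). ING2 siRNA was compared with control siRNA with lmFit and eBayes of limma 3.58.1, run under R 4.3.3, with no covariate, once over genes and once over probe sets. Values and errors of a gene's brightest probe set come from the fit over genes, and those of further probe sets from the fit over probe sets. Members, lists and tests were chosen with earlier results of these arrays known. The text names all members, ING2, called genes of the list (up to 4 each way) and the 3 genes closest to SLC16A4. Other list genes, further probe sets and the line's markers were picked out with their values in view. The gene fit was tested on simulated data built from these arrays (19777 genes), where it recovered 53 of 100 changes of 0.5 and 97 of 100 changes of 1 (log2) and called 6 unchanged genes. The simulated noise was independent between genes and held no shift with intensity, so these counts need not hold for the arrays themselves. Alternatives were other scalings, a filter on dim probe sets, other probe set choices, an intensity trend, the replicate number as a block, other thresholds and leaving out each array.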

Additional observations from a re-analysis of the deposited data

How the results depend on the processing

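SLC16A4 was called lower under every alternative that kept all 6 arrays, except the stricter threshold. At an adjusted p under 0.01, 0 member genes, 0 member probe sets and 0 list genes were called lower. At an adjusted p under 0.10, 1 member gene (BSG) and 2 list genes were called higher, where 2483 of all 19777 genes were. Without dim probe sets, 1 list gene was called higher, where 870 of the 14833 genes kept were. With the mean of probe sets, 1 list gene was called higher, where 1229 of all 19777 genes were. Choosing the probe set by interquartile range gave 7 list genes called lower, where 1953 of all 19777 genes were. Leaving out each array in turn, between 0 and 2 member genes and 0 and 6 list genes were called lower. Of all 19777 genes, between 2 and 1631 were called lower in these fits. Between 0 and 2 list genes were called higher, where between 0 and 1227 of all genes were. Between 0 and 3 member probe sets were called lower, and the count over all probe sets was not taken for these fits. Signs turned for values that were not called. After quantile normalization these were LDHB 201030_x_at (0.020), SLC16A7 210807_s_at (-0.0019) and 241866_at (-0.040). After cyclic loess they were LDHA (0.067), LDHB (0.047 and, for 201030_x_at, 0.062), SLC16A7 210807_s_at (-0.032) and 241866_at (-0.039). SLC16A5 was 0.023 with the mean of probe sets and 0.20 with the choice by interquartile range. Leaving out arrays gave -0.16 to 0.085 for SLC16A7 207057_at, -0.041 to 0.19 for 210807_s_at and -0.039 to 0.21 for 241866_at. The change in LDHA minus LDHB between the groups (ING2 siRNA minus control siRNA) was -0.02 after quantile normalization, against 0.02 on the deposited values. The causes were not tested. Over all genes, 1640 were called (716 higher, 924 lower), against 351 higher and 1303 lower after median centring and 1029 higher and 641 lower after quantile normalization. The total was 2620 with the mean of probe sets, 3260 with the choice by interquartile range, 4500 at the threshold of 0.10, 2 at 0.01 and 2 to 2613 without 1 array (2577 without ING2 siRNA replicate 2 and 2613 without control siRNA replicate 1, and 2 or 3 without each of the other arrays). Whether same-numbered arrays belonged together is not settled here. Their deviations from the group means correlated at 0.26, 0.29 and -0.02 over genes, against -0.31 to 0.10 for arrays of different numbers. For ING2 siRNA replicate 3 the highest correlation, 0.04, was with control siRNA replicate 1. With the replicate block 3508 of all 19777 genes were called, 1630 higher and 1878 lower. Among those called lower were 1 member gene and 6 list genes, and 0 of either were called higher. The planned within-array differences with SLC16A1 and SLC16A3 were not run, since neither gene was analysed here.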

Other observations

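For PDP1, PDHB and MPC2, a further probe set was called lower where the brightest probe set of the same gene was not. These 3 genes were picked out after their values were seen, and other genes of the list did not share the pattern. For DLD the further probe set 230426_at had a log2 difference of -0.04, against -0.53 for the brightest, and for PDK1 206686_at had one of -0.21, against -0.36. PDP1 encodes a phosphatase that switches pyruvate dehydrogenase on. Its probe set 218273_s_at read 242, 258 and 265 units with ING2 siRNA, against 565, 503 and 501 units with control siRNA, and in log2 units fell by 1.04 (SE 0.09, limma adjusted p = 0.00146 over probe sets). The brighter PDP1 probe set, 222572_at, read 4368, 5143 and 4766 units with ING2 siRNA, against 5039, 6338 and 5853 units with control siRNA. Its log2 difference of -0.27 (SE 0.11) did not pass, and its groups overlapped. For PDHB, a catalytic subunit gene, 208911_s_at fell by 0.55 (SE 0.10, limma adjusted p = 0.0201), beside -0.13 for the brighter 211023_at. For MPC2, a subunit of the mitochondrial pyruvate carrier, 227669_at fell by 0.47 (SE 0.11, limma adjusted p = 0.0392), beside -0.17 for the brighter 202427_s_at. Over all 51 probe sets of the list, 8 were called lower and 0 higher, where 5.12% and 2.18% of all probe sets were. At an unadjusted p under 0.05 in limma 13 were lower and 6 higher, where 5671 and 6619 of all 41091 probe sets were. Which transcripts the probe sets of these genes read was not tested.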
